A study of Rattus norvegicus with 13 samples.

Results

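The proteasome is the barrel-shaped protease that degrades proteins tagged with ubiquitin. Its 20S core is built of alpha rings, which gate the entrance, and beta rings, which hold the proteolytic sites. The 19S cap binds ubiquitin chains, removes them, and unfolds the substrate with a ring of ATPases that feeds it into the core. In neurons this system supports protein turnover at synapses, and cells usually make its subunits in proportion to one another.

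The set was chosen by name, as every gene of the comparison whose symbol begins with Psma to Psmg followed by a number, leaving out Psmb8 and Psmb9. It holds 45 of 14855 genes. Among them are 31 structural subunits, with 14 genes of the 20S core (7 of the alpha ring and 7 of the beta ring) and 17 of the 19S cap (6 ATPases and 11 non-ATPase subunits). The 19S subunits Adrm1 and Sem1 carry other names and so stand outside the set. The other 14 are 7 assembly chaperones, 4 alternative caps, the regulator Psmf1, the inducible beta subunit Psmb10, and Psmc3ip. Psmb10 belongs to the immunoproteasome, an interferon-inducible form of the core, and Psmc3ip encodes a meiotic recombination factor named for binding an ATPase subunit. Neither is a constitutive proteasome subunit, so both are kept apart from the 20S and 19S classes.

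RNA was sequenced from the medial preoptic area of the hypothalamus of adolescent male SAS Sprague-Dawley rats. At postnatal day 21 every rat had received adeno-associated virus of serotype 5 on both sides, 0.5 uL per side, carrying GFP and a U6-driven short hairpin RNA (shRNA). In 6 samples the shRNA was directed at Oprm1, which encodes the mu opioid receptor, and in 7 it was scrambled. The label of 1 Oprm1 shRNA sample sets it aside as an outlier, which leaves 5 against 7, and the labels do not say that each sample is a separate rat. The tissue was dissected as a region, so cells that took up virus were not separated from the others.

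The data are one comparison made by the authors with edgeR. Values of each sample were not used here, so read depth is unknown and the spread between samples enters only through the authors' likelihood ratio statistic (LR). For each gene the log2 fold change is positive where Oprm1 shRNA samples were higher. It is called the log2 ratio below. Dividing its size by the root of the LR gave an approximate standard error for each gene, and from that a 95% interval. Average CPM, a gene's read count scaled by library size, is given as the read support of a fold change. It is not scaled by gene length, so it does not rank genes by transcript number.

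Oprm1 itself had a log2 ratio of −0.58 per the authors' deposited table, at 7.32 CPM, with a fold interval from 0.0715 to 6.27, so the knockdown cannot be checked from its transcript. All 10 markers fixed for preoptic neurons were listed, among them Esr1 at 41.8 CPM, Gal at 64.1 CPM and Slc32a1 at 205 CPM per the authors' deposited table. Of these 10, 8 had fold changes above 0 there, beside 48.4% of all genes. The median of the 10 was 0.25, and none was under an unadjusted p of 0.05. The 2 below 0 were Pgr at −0.99 and Six3 at −0.74 in the authors' deposited table. Read support of the 10 went down to 1.03 CPM for Hmx3, whose fold interval ran from 0.108 to 14.5. Of 5 lymphocyte markers the values of 2 were used here, Cd4 at 6.84 CPM and Lck at 6.87 CPM per the authors' deposited table. All 5 oligodendrocyte markers had fold changes below 0, from −0.11 to −0.01, and of the 6 microglial markers 4 did, in the authors' deposited table. Above 0 were 2 of 5 neuronal, 2 of 5 astrocyte and 2 of 3 endothelial markers there. The neuronal marker Map2 had a log2 ratio of −0.15 per the authors' deposited table, with a fold interval from 0.839 to 0.972 (edgeR unadjusted p = 0.00635, adjusted p = 0.9997), and was the one marker under an unadjusted p of 0.05. No marker of these lists passed an adjusted p of 0.05, and the part of cell makeup in the values below was not tested. In bulk tissue fewer cells of a type and less RNA per cell cannot be told apart.

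No proteasome gene passed the threshold. At an adjusted p under 0.05, 0 of the 45 genes were called by the authors' edgeR likelihood ratio test, beside 0.0202% of all genes, and each of the 45 stood at 0.9997 in the authors' deposited table after adjustment. At an unadjusted p under 0.05 there were 2 of 45, beside 4.39% of all genes. One of them was higher, where the share of all genes is 1.49%, and one was lower, where it is 2.90%. Both counts are near what these shares give for 45 genes. A fold change above 0 was given for 29 of the 45 genes in the authors' deposited table, beside 48.4% of all genes, and 16 were below. No test was run over these signs, because the genes share their libraries. The median log2 fold change of the set was 0.11, beside −0.02 over all genes tested and −0.01 over the 3962 other genes in the abundance range of the structural subunits.

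**Figure D1:**
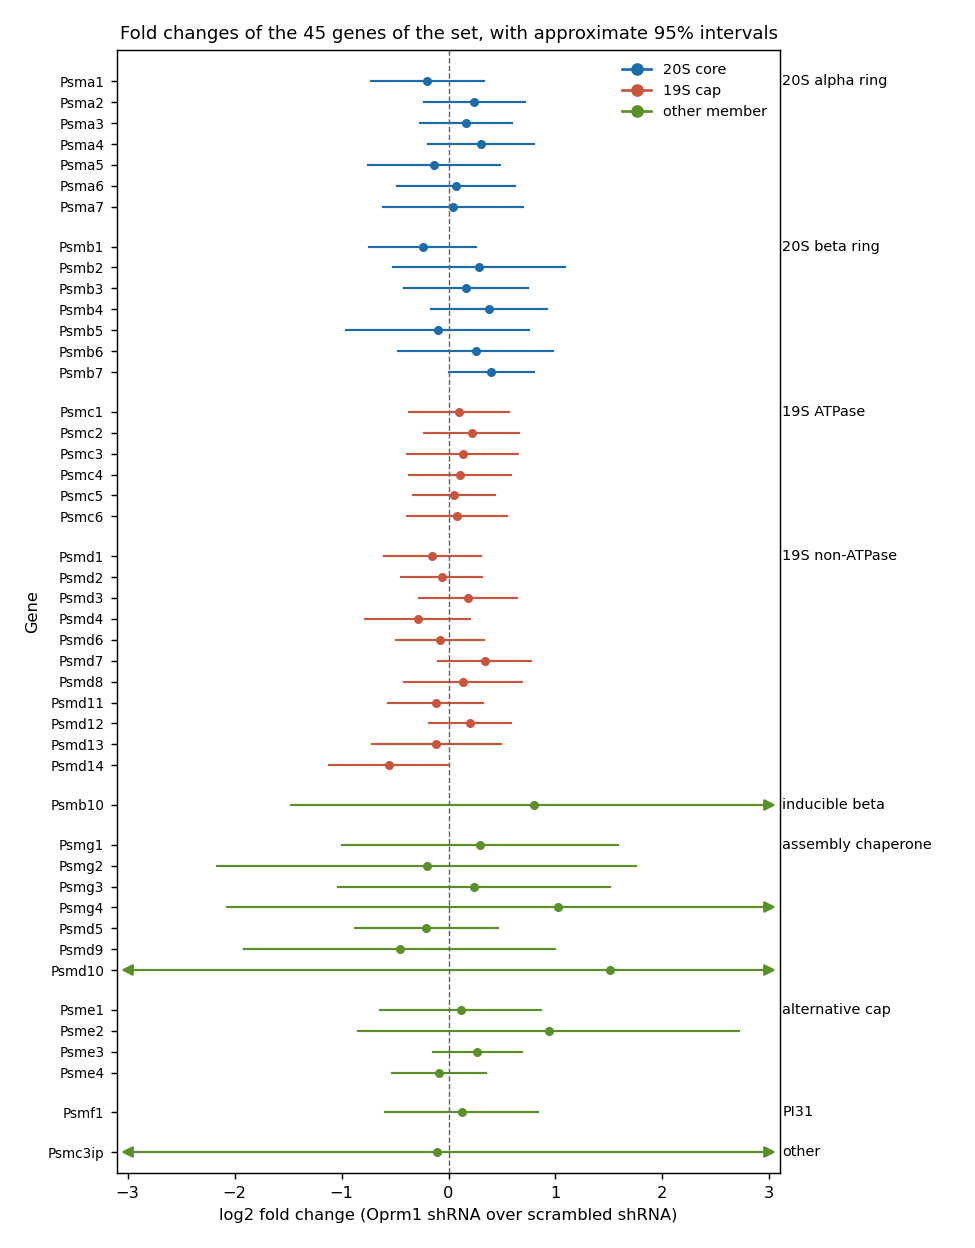
Log2 fold change (horizontal axis, Oprm1 shRNA over scrambled shRNA) of each of the 45 genes (vertical axis), grouped by role, with 20S core genes in blue, 19S cap genes in orange-red and the others in green. Lines are approximate 95% intervals and arrowheads mark intervals that run past the axis. The intervals of 43 genes hold 0, and those of Psmb7 and Psmd14 end next to it.

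Most structural subunits, like most other genes of their abundance, were bounded within a 2-fold change. Over the 31 genes the fold ran from 0.678 to 1.32 in the authors' deposited table. On the log2 scale a typical subunit had a standard error of 0.25 (median), and a difference of about 1.41-fold would clear its interval. For 29 of the 31 the interval lay inside a 2-fold change in either direction, and for 7 it lay inside 1.5-fold. Of the 3962 other genes in their abundance range, 3218 lay inside 2-fold and 857 inside 1.5-fold. Those 7 of the 31 were all cap genes, and 0 of the 14 core genes were bounded inside 1.5-fold. Cap genes had more reads, with a median of 124 CPM and a median standard error of 0.23. The core genes had 97.1 CPM and 0.28, so the count does not show a steadier cap. The 31 log2 fold changes had a standard deviation of 0.22 among themselves, 0.871 times the median error of 0.25 of the 31 genes. Over the other genes of the same abundance the standard deviation was 0.29 and the median standard error 0.28. There the ratio of the spread to the error was 1.05.

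The promoters of the set were read from the RefSeq table of build GRCr8, as the 250 bases before each annotated start, and 41 of the 45 genes had an entry. Those of Psma7, Psmd6, Psmd12 and Psmd14 were not used here. The catalytic subunits are shown because they carry the core's function, and Psmd7 because it is the 19S subunit of smallest p with an entry. Capitals mark, on either strand, the antioxidant response element core TGACNNNGC, known to be bound by the transcription factors Nfe2l1 and Nfe2l2, the CCAAT box CCAAT, the GC box GGGCGG, the ETS site CCGGAAG and the TATA box TATAAA, and no pair of these overlaps in the sequences shown. Psmb5 lies at chr15:32047380-32047629 on the minus strand, Psmb6 at chr10:55737638-55737887 on the plus strand, Psmb7 at chr3:42827471-42827720 on the minus strand and Psmd7 at chr19:52411317-52411566 on the minus strand.
Psmb5: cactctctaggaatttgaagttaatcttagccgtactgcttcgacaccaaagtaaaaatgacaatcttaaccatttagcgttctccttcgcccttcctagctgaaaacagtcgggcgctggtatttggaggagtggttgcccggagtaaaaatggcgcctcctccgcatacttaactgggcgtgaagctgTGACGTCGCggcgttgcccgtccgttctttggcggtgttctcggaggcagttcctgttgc
Psmb6: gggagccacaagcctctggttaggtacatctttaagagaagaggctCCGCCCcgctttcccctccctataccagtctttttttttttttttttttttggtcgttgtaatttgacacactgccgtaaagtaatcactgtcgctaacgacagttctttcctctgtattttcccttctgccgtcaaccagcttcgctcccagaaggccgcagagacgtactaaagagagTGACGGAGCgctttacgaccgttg
Psmb7: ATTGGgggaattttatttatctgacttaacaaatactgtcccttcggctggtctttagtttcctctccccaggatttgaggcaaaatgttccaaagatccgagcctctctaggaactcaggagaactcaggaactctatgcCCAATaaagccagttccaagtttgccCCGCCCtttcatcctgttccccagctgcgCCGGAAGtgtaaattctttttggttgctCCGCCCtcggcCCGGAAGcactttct
Psmd7: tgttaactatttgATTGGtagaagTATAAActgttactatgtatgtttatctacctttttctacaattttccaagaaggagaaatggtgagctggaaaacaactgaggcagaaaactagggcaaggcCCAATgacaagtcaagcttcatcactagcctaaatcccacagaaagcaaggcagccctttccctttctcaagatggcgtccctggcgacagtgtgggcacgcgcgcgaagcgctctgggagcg

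A match is a description of letters and not a binding site. Psmb5 and Psmb6 each hold 1 antioxidant response element core, within 60 bases of the start, and Psmb7 holds 0 of it but 2 ETS sites, 2 GC boxes and 2 CCAAT boxes. Over the set, 7 of 41 promoters held the element, or 17.1%, beside 12.1% of the 12061 promoters of genes tested and 10.1% of all 33469 in the table. The ETS site was in 12 of 41, or 29.3%, beside 13.3% of the promoters of genes tested and 7.27% of all. The CCAAT box was in 20 of 41 (48.8%, beside 34.4% of those of genes tested and 34.0% of all), and the GC box in 29 of 41 (70.7%, beside 55.7% and 30.5%). The TATA box was in 4 of 41 (9.76%, beside 6.69% and 12.9%). By class, the antioxidant response element core was in 4 of 13 core and 1 of 14 cap promoters, and over 300 bases in 4 of 13 and 2 of 14. The ETS site was in 3 of 13 core and 6 of 14 cap promoters, the CCAAT box in 9 and 5, the GC box in 11 and 8, and the TATA box in 1 and 3. In all, 7 motifs were searched, of which 5 are marked. Of the others, a longer form of the antioxidant response element was in 1 of 41 (2.44%, beside 1.92% and 2.64%). GATTGG, which overlaps the CCAAT box on the other strand, was in 10 of 41 (24.4%, beside 17.4% and 13.3%). The motifs and the window were settled after these shares had been seen over 300 bases, which take in 50 bases after the start, so the shares are a description of chosen motifs. Over 300 bases the ETS site was in 15 of 41, or 36.6%, beside 15.4% of the promoters of genes tested, and the antioxidant response element core in 8 of 41, or 19.5%, beside 14.3%. The median GC content was 57.2% for the set and 59.6% for the promoters of genes tested.

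The beta ring holds the catalytic subunits, and the member with the smallest p of the whole set was one of them. Psmb7, which carries the trypsin-like site, had a log2 ratio of 0.40 at 152 CPM per the authors' deposited table, a 1.32-fold difference with an interval from 1.002 to 1.74 (edgeR unadjusted p = 0.0486, adjusted p = 0.9997). Psmb6, the subunit of the caspase-like site, had 0.25 at 81.8 CPM per the authors' deposited table (fold interval 0.722 to 1.97, unadjusted p = 0.492 from edgeR). Psmb5, which carries the chymotrypsin-like site and is the main target of proteasome inhibitor drugs, had −0.10 at 95.6 CPM per the authors' deposited table (fold interval 0.515 to 1.69, edgeR unadjusted p = 0.817), with the widest standard error of the ring at 0.44. These catalytic subunits share each core in equal number, and their intervals overlap.

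Among the beta subunits without a catalytic site, Psmb4 had a log2 ratio of 0.38 at 69.8 CPM per the authors' deposited table (1.299-fold, interval 0.893 to 1.89, edgeR unadjusted p = 0.171). Psmb1 was the member of the ring on the other side of 0 with the smallest p, at −0.24 in the authors' deposited table (interval 0.598 to 1.198, edgeR unadjusted p = 0.348). Psmb2 and Psmb3 had 0.28 and 0.16 in the authors' deposited table. Of the 7 beta genes 5 were above 0, with a median of 0.25.

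The alpha ring had no gene under an unadjusted p of 0.05, where 4.39% of all genes are. Its smallest p belonged to Psma4, with a log2 ratio of 0.30 at 106 CPM per the authors' deposited table (1.23-fold, interval 0.877 to 1.74, edgeR unadjusted p = 0.228). Psma2 followed with 0.24 in the authors' deposited table (interval 0.853 to 1.64, edgeR unadjusted p = 0.313). Psma3, whose tail helps to close the gate of the core, had 0.16 in the authors' deposited table (interval 0.831 to 1.51, edgeR unadjusted p = 0.458). Psma1 and Psma5 were below 0, at −0.20 and −0.14 in the authors' deposited table, and Psma6 and Psma7 lay closest to 0, at 0.07 and 0.04. The ring's median was 0.07, with 5 of 7 genes above 0.

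All 6 ATPases of the 19S cap, the hexamer that unfolds substrates, had fold changes above 0, where 48.4% of all genes do. They lay close together, from 0.05 for Psmc5 to 0.22 for Psmc2 in the authors' deposited table, with a standard deviation of 0.06. That spread is 0.244 times the median standard error of 0.24, so no order among them can be read. Psmc2 had the smallest p of the ring, a 1.16-fold value with an interval from 0.854 to 1.58 in the authors' deposited table (edgeR unadjusted p = 0.337). Psmc3 had 0.13 in the authors' deposited table (interval 0.765 to 1.57, edgeR unadjusted p = 0.616). Psmc4 had 0.11 there (interval 0.774 to 1.501, edgeR unadjusted p = 0.656), and Psmc1 and Psmc6 had 0.10 and 0.08. The interval of each ATPase lay within a 2-fold change, and that of 3 within 1.5-fold. The genes share the same libraries, so their common sign is a description and not a count of independent events.

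The non-ATPase subunits of the cap were spread more widely, with 4 of 11 above 0 and a median of −0.08. Psmd14, the metalloprotease that cuts ubiquitin chains off the substrate as it is unfolded, had the lowest value of the set, a log2 ratio of −0.56 at 81.4 CPM per the authors' deposited table. This is a fold of 0.678 with an interval from 0.460 to 0.999 (edgeR unadjusted p = 0.0496, adjusted p = 0.9997). Psmd7, its catalytically inactive partner in the cap, had 0.34 at 126 CPM per the authors' deposited table, with an interval from 0.933 to 1.71 (edgeR unadjusted p = 0.131). Their intervals overlap between 0.933 and 0.999, and the difference between the partners was not tested.

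The ubiquitin receptor Psmd4 had a log2 ratio of −0.29 per the authors' deposited table (interval 0.583 to 1.15, edgeR unadjusted p = 0.253). The large scaffold subunits Psmd1 and Psmd2, with 237 and 271 CPM the best supported genes of the set, had −0.15 and −0.07 in the authors' deposited table. Of the lid scaffold subunits, Psmd12 had 0.20, Psmd3 0.18 and Psmd8 0.14 in the authors' deposited table. Psmd6, Psmd11 and Psmd13, of the same lid, had −0.08, −0.12 and −0.11 there. Without Psmd14 the class had a median of −0.07, and 4 of the 10 genes were above 0. Its mean weighted by the standard errors was 0.01 without Psmd14 and −0.02 with it.

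Set against each other, the 20S core had a median log2 fold change of 0.16 and the 19S cap 0.08, a difference of 0.08. Above 0 were 10 of 14 core genes and 10 of 17 cap genes. No error was computed for this difference and no test over genes was run on it, because subunits measured in the same libraries are not replicates. Weighting by the standard errors gave means of 0.14 for the core and 0.03 for the cap. The cap's value depends on its ATPases, since the non-ATPase subunits alone had a median of −0.08 and stood 0.24 below the core.

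**Figure D2:**
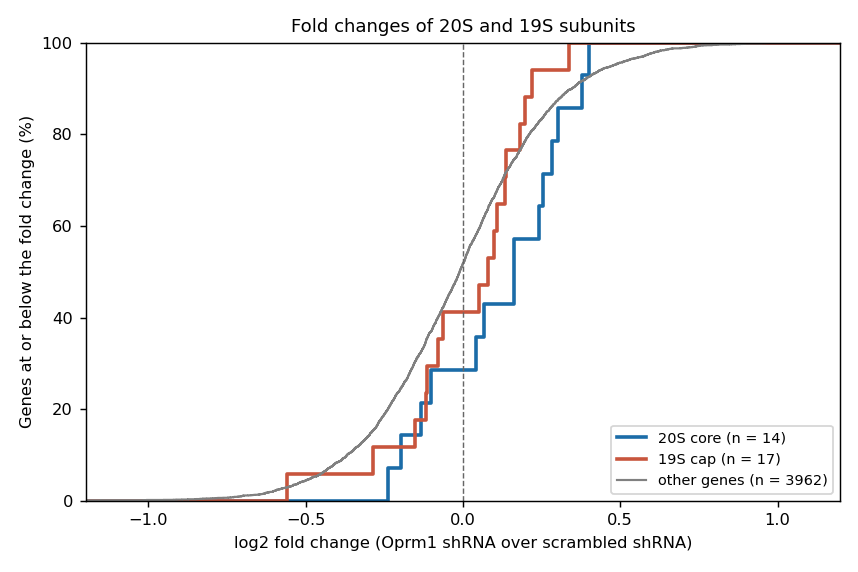
Cumulative share of genes (vertical axis, percent) at or below each log2 fold change (horizontal axis) for 14 core genes, 17 cap genes and 3962 other genes of the same abundance range, whose few values beyond the axis are cut off. The core curve lies to the right over its middle, with medians of 0.16 for the core, 0.08 for the cap and −0.01 for the other genes.

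Of the 14 genes outside the structural classes 0 had an unadjusted p under 0.05, beside 4.39% of all genes. The smallest was that of Psme3 (edgeR unadjusted p = 0.206). Read support of the 14 was lower, at a median of 24.96 CPM against 106 CPM for the structural subunits. The median standard error was 0.70, so that only a difference of about 2.59-fold would clear a typical interval. The largest fold changes of the set stood here and at the lowest counts. Psmd10, an assembly chaperone also known as gankyrin, had a log2 ratio of 1.51 at 1.31 CPM per the authors' deposited table, with an interval from 0.121 to 67.0 (edgeR unadjusted p = 0.517). Psmg4, an alpha-ring chaperone, had 1.03 at 2.88 CPM per the authors' deposited table, with an interval from 0.237 to 17.5 (edgeR unadjusted p = 0.517). Both intervals leave room for a large difference in either direction.

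Among the better measured chaperones, Psmd5, which holds ATPases during cap assembly, had −0.21 at 44.7 CPM per the authors' deposited table (interval 0.545 to 1.38). Psmd9, another ATPase chaperone, had −0.46 in the authors' deposited table (interval 0.266 to 1.998, edgeR unadjusted p = 0.540). The alpha-ring chaperones Psmg1, Psmg2 and Psmg3 had 0.30, −0.20 and 0.24 in the authors' deposited table. Of the 7 chaperones 4 were above 0. Psmf1 (PI31), a regulator first described as an inhibitor of the core, had 0.12 in the authors' deposited table (interval 0.663 to 1.79, edgeR unadjusted p = 0.738). Psmc3ip had −0.10 at 5.48 CPM per the authors' deposited table (interval 0.0748 to 11.6, edgeR unadjusted p = 0.956).

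**Figure D3:**
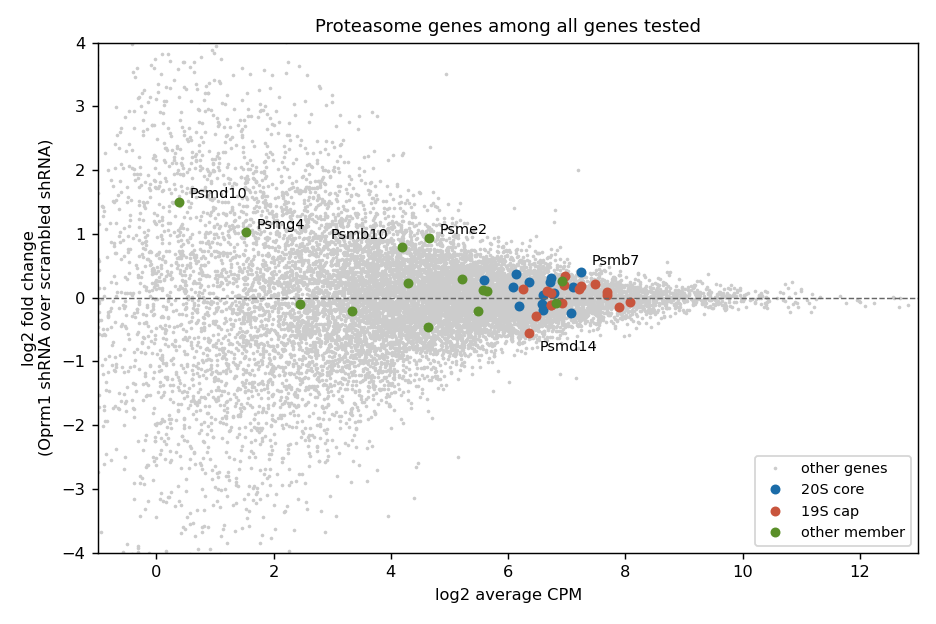
Log2 fold change (vertical axis) against log2 average CPM (horizontal axis) of all genes tested in grey, with core, cap and other members coloured, where 625 genes fall outside the plotted range. The members lie inside the cloud of other genes, and the large values of Psmd10 and Psmg4 stand where the cloud is wide.

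The alternative caps open the core without ATP. Psme3, the nuclear form, had a log2 ratio of 0.27 at 121 CPM per the authors' deposited table (1.204-fold, interval 0.903 to 1.61, edgeR unadjusted p = 0.206). Psme4, a large single-chain activator, had −0.09 at 112 CPM per the authors' deposited table, with an interval from 0.694 to 1.28 (edgeR unadjusted p = 0.700). Psme1 and Psme2 form the interferon-inducible cap, and had 0.11 and 0.94 in the authors' deposited table, the second of them at 25.04 CPM with an interval from 0.557 to 6.59 (edgeR unadjusted p = 0.302).

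Each catalytic subunit has an inducible counterpart that replaces it in the immunoproteasome, and these were measured with far fewer reads. Psmb10, the counterpart of Psmb7, had a log2 ratio of 0.80 at 18.3 CPM per the authors' deposited table (interval 0.361 to 8.41, edgeR unadjusted p = 0.489). Psmb8, the counterpart of Psmb5, had 1.60 at 6.74 CPM per the authors' deposited table (interval 0.217 to 42.2, edgeR unadjusted p = 0.410). Psmb9, the counterpart of Psmb6, had 1.91 at 4.36 CPM per the authors' deposited table (interval 0.345 to 41.0, edgeR unadjusted p = 0.277). All of the inducible forms were above 0 and above their constitutive counterparts of 0.40, −0.10 and 0.25, but none passed an unadjusted p of 0.05 and each interval contains that of its constitutive counterpart.

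Genes that work with the proteasome were read from lists of partners, regulators, shuttles and ubiquitin genes. Of 8 partner genes measured, 5 were above 0 and 3 below, with a median of 0.03. Akirin2, which brings proteasomes into the nucleus, had 0.53 in the authors' deposited table (interval 0.784 to 2.66, edgeR unadjusted p = 0.238). The scaffold Ecpas had −0.19 there (interval 0.665 to 1.15, edgeR unadjusted p = 0.345). Adrm1 and Sem1, the 19S subunits outside the set, had 0.03 and 0.44 in the authors' deposited table.

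Nfe2l1 is the transcription factor that induces proteasome genes when proteasome activity is low, and Ddi2 is the protease that cleaves it into its active form. Ddi2 had a log2 ratio of 0.61 at 119 CPM per the authors' deposited table, a 1.53-fold value with an interval from 1.11 to 2.10 (edgeR unadjusted p = 0.00985, adjusted p = 0.9997). Nfe2l1 had −0.20 at 206 CPM, with an interval from 0.647 to 1.17, in the authors' deposited table (edgeR unadjusted p = 0.357). The other regulators, the related factor Nfe2l2 and the deglycosylase Ngly1, had −0.53 and −0.28 there, so 1 of the 4 was above 0 and 3 below.

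Of the 9 shuttle and unfoldase genes 4 were above 0, with a median of −0.01. Nploc4, a cofactor of the unfoldase Vcp, had 0.77 in the authors' deposited table (1.71-fold, interval 1.08 to 2.69, edgeR unadjusted p = 0.0208, adjusted p = 0.9997). Ufd1, its partner in the same cofactor, had −0.03, and Vcp had 0.08 at 540 CPM per the authors' deposited table. Ubqln4, a shuttle for ubiquitinated proteins, had −0.20 there (interval 0.616 to 1.24, edgeR unadjusted p = 0.445). Among the ubiquitin genes the polyubiquitin gene Ubb was the most closely bounded of these lists, with a fold interval from 0.928 to 1.12 in the authors' deposited table. Rps27a, which encodes ubiquitin fused to a ribosomal protein, stood in 2 rows, with 0.56 at 124 CPM (interval 1.04 to 2.08, edgeR unadjusted p = 0.0285) and −0.91 at 19.3 CPM per the authors' deposited table. Uba1, the main ubiquitin-activating enzyme, had −0.23 there (interval 0.645 to 1.13, edgeR unadjusted p = 0.275). No gene of these lists passed the adjusted threshold.

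**Figure D4:**
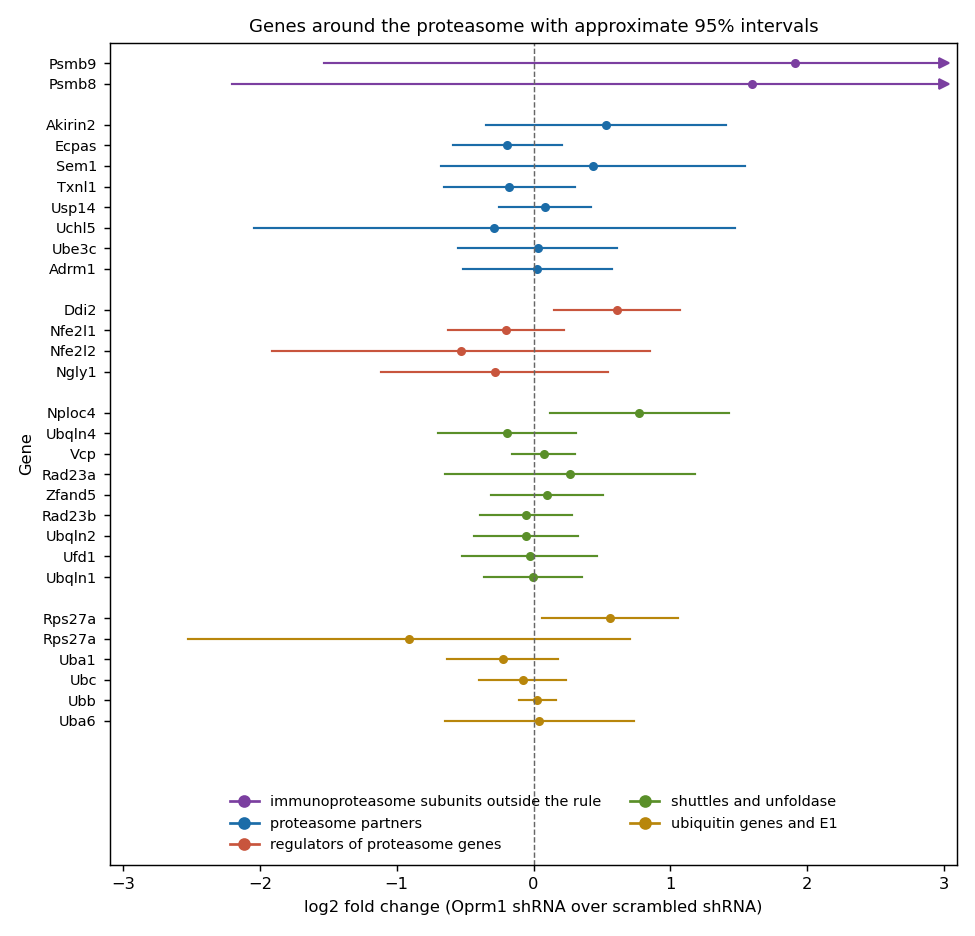
Log2 fold change (horizontal axis, Oprm1 shRNA over scrambled shRNA) of genes around the proteasome (vertical axis), coloured by list and ordered by p within each, with approximate 95% intervals as lines and arrowheads where they run past the axis. The intervals of Ddi2, Nploc4 and 1 of the 2 Rps27a rows lie above 0, and all others hold 0. None of these passed an adjusted p of 0.05, and 4.39% of all genes had an unadjusted edgeR p under 0.05.

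Copies of these genes bear on the counts, because reads that fit several places are divided by an estimate. The RefSeq names hold 46 pseudogene entries for 19 of the 45 genes, with 7 for Psmb3, 5 for Psma6, 4 for Psme3, 2 for Psmb7 and 1 for Psmd14. The same names hold entries marked as like a member for 4 of the 45 genes, with 3 for Psmb3. One row of the comparison, LOC100360846, is described as like Psmb6 and had a log2 ratio of 0.23 at 0.986 CPM per the authors' deposited table. How many reads other copies took cannot be read from that row. How much the copies moved the fold changes was not tested.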

How the data were processed

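Per the submitters' processing notes the tools were STAR 2.5.3a, bcl2fastq 2.20, edgeR 3.28.0 and RSEM, and the build was Rnor_6.0. Annotation, filter, covariates and strandedness are not given in the sources used here. A table of 14855 genes was deposited by the authors, with a log2 fold change, a log2 average CPM, a likelihood ratio score, a p-value and a Benjamini-Hochberg adjusted p-value, per the file headers. The deposited p-values followed from the LR by a chi-square test of 1 degree of freedom in all 14855 genes, and the adjusted values imply 14859 tests. They were used as given, with a threshold of 0.05, as planned for a table without values per sample. Implied standard errors treat the LR as a squared normal value and are poor at low counts. The interval computation was run on data simulated from these same implied errors, which returns them by construction. Whether the LR behaves as a squared normal value was not tested. Genes of like abundance are the 200 nearest in average CPM. Members, classes and lists were chosen with earlier results of these data known. Every member may be named, with the log2 ratio, interval and p for those under an unadjusted p of 0.05, the 3 of smallest p in each class and the catalytic subunits. In each list the 2 genes of smallest p are named, and others (Adrm1, Sem1, Nfe2l2, Ngly1, Ufd1, Vcp, Ubb, a second Rps27a row and the markers) were chosen after their values were seen. One gene of the ubiquitin list is not reported here, so no count or median is given for that list. Of 7 motifs searched 5 are marked, and motifs and window were chosen after their shares and the fold changes were known. Overlapping genes cannot be told apart without strand. Python 3.11.15, numpy 2.4.6, pandas 2.3.3, scipy 1.17.1 and matplotlib 3.10.9 were used.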

Additional observations from a re-analysis of the deposited data

How the results depend on the processing

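No paired analysis was possible because the deposited table holds one comparison and no values per sample; for the same reason leaving out replicates, DESeq2 and filters on counts were not run. The count of 0 genes past the adjusted threshold was 0 at 0.1 and at 0.01, and after adjusting anew over the rows at hand or over rows whose log2 CPM is at least 0 or 4. The count of 2 at an unadjusted p under 0.05 was 0 at 0.01 and 2 at log2 CPM of at least 4. The count of 29 genes above 0 was 29 after centring on genes of like abundance, 27 of 41 at log2 CPM of at least 4 and 20 of 31 among structural subunits. The set's median lay between 0.10 and 0.11 in the alternatives that kept a median. Its mean was 0.13, and its mean weighted by the standard errors was 0.07. The core minus cap difference lay between 0.07 and 0.11 in the planned ones; it was 0.08 with Psmb10 in the core, 0.08 with Adrm1 and Sem1 in the cap and 0.24 without the ATPases, all chosen after seeing the data. Without its ATPases the cap's median turned to −0.078, since by construction 6 genes above 0 are taken out. Read depth is unknown, so its part in the standard errors was not tested; they were wider for the genes outside the structural classes.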
